A study of Bombyx mori with 3 samples.

Results

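The enzymes of glycolysis, the citrate cycle and the pentose phosphate pathway were followed in the midgut of silkworm larvae (Bombyx mori) that had eaten phoxim, an organophosphate insecticide. The members were the gene probes whose KEGG annotation in the array files named 1 of these 3 pathways and that carried the files' brightness flag on all 3 arrays. Probes annotated to oxidative phosphorylation, or described as alcohol dehydrogenase, succinate dehydrogenase or a UDP enzyme, were left out. Of 76 probes annotated to the 3 pathways, 38 were members, out of 3964 flagged probes and 23229 gene probes in all. Glycolysis, whose KEGG term also takes in gluconeogenesis, held 19 members, the citrate cycle 11 and the pentose phosphate pathway 10, with 2 members in both the first and the last.

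The larvae were of strain P50 and were reared on mulberry leaves. From day 3 of the fifth instar the treated group received leaves dipped for 1 min in phoxim at 4 µg/mL and the control group leaves dipped in water, and midguts were dissected 24 h later, with 30 larvae per experiment. Each of 3 two-colour arrays set phoxim midgut RNA directly against control midgut RNA, and the arrays are named biological replicates in the design text. Whole dissected midgut holds several cell types, so fewer cells of a type and less RNA per cell cannot be told apart. The values are log2 ratios of phoxim over control as deposited, so that -1 is a halving of the level and 0 no difference. For replicate 2 the labels and the file header name opposite dyes. The header was followed. With that array turned, the medians of the glycolysis, citrate cycle and pentose phosphate members came to -0.016, -0.025 and 0.020, and 13 of the 38 members changed the sign of their mean.

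Glycolysis splits glucose into pyruvate in the cytosol, and the pyruvate dehydrogenase complex turns pyruvate into the acetyl units that the citrate cycle oxidises in the mitochondrion. The pentose phosphate pathway takes glucose 6-phosphate instead, and makes NADPH, which reduces glutathione and feeds biosynthesis, and ribose 5-phosphate for nucleotides. In a leaf-eating caterpillar the midgut absorbs the sugars of the diet and uses much ATP to drive its proton pumps.

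No member passed the test of phoxim against control. In limma, with Benjamini-Hochberg adjustment over all 3964 flagged probes and a threshold of 0.05, 0 of 38 members were called, the smallest adjusted p among them being 0.20; the background was 0.681% of flagged probes, 27 probes in all (20 higher and 7 lower, or 1 higher and 0 lower with the arrays scaled to 1 spread). At an unadjusted p below 0.05 there were 6 members, against a background of 15.2% in either direction. Of these, 5 were lower (background 4.54%) and 1 was higher (background 10.7%). The mean log2 ratios of the members ran from -0.69 for citrate synthase to 0.47 for pyruvate carboxylase, and none reached a 2-fold difference. The 95% limma interval of a mean had a median width of 0.86 on the log2 scale, and 6 of the 38 intervals left out 0.

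The members lay below 0 more often on replicates 1 and 2 than on replicate 3. On replicates 1 and 2 the log2 ratio was below 0 for 28 of 38 members each (73.7%), against a background of 46.2% and 45.2% of flagged probes, while on replicate 3 it was below 0 for 14 members (36.8%), against a background of 44.9%. The median over the members was -0.32, -0.27 and 0.072 on replicates 1, 2 and 3, beside 0.050, 0.048 and 0.039 over all flagged probes. In total 12 members were below 0 on all 3 arrays (31.6%; background 14.3%) and 5 were above 0 on all 3 (13.2%; background 23%). The 53 flagged probes of the oxidative phosphorylation term, described in the same way, had medians of -0.28, -0.15 and 0.0035, with 17 probes below 0 on all 3 arrays (32.1%).

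**Figure D1:**
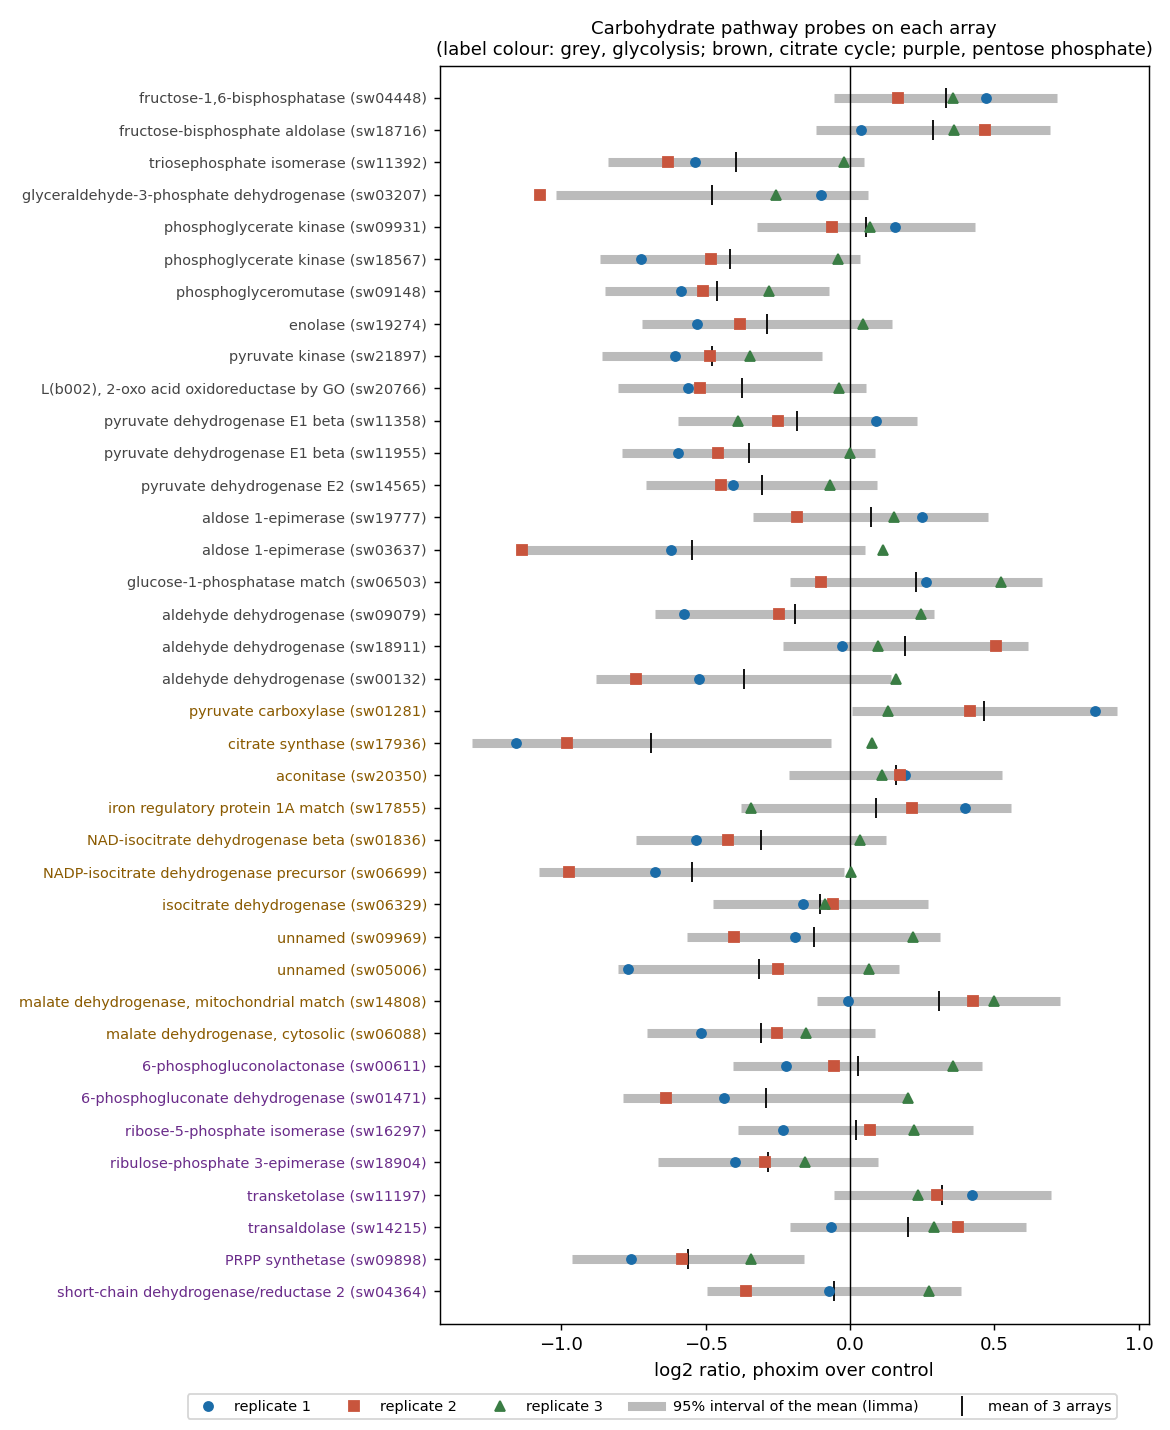
Log2 ratio of phoxim over control (x axis) for each of the 38 probes (y axis, in the order of the reactions), with 1 symbol per array, a tick for the mean of 3 arrays and a grey bar for its 95% limma interval. Triangles of replicate 3 sit to the right of the other symbols for most glycolysis and citrate cycle enzymes, and 6 of the 38 bars leave out 0.

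Of the 3 pathways, glycolysis had the lowest median ratio on all arrays and the pentose phosphate pathway the highest. The median of the members' mean log2 ratios was -0.31 for glycolysis, -0.13 for the citrate cycle and 0.023 for the pentose phosphate pathway, beside 0.035 for all flagged probes. By array, the glycolysis median was -0.52, -0.45 and 0.046 on replicates 1, 2 and 3. The citrate cycle median was -0.19, -0.25 and 0.066. The pentose phosphate median was -0.15, 0.0069 and 0.25. All 3 medians were thus highest on replicate 3. Their order was the same on each array in the deposited ratios, but on replicate 3 glycolysis was above the citrate cycle with loess on the intensities (0.034 against 0.017) and with their median-centred quotient (0.065 against -0.046).

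The distance between glycolysis and the pentose phosphate pathway varied least between arrays. With the 2 shared members left out, the glycolysis median minus the pentose phosphate median was -0.30, -0.28 and -0.23 on replicates 1, 2 and 3 (mean -0.27 ± 0.038, SD, n = 3). Glycolysis minus citrate cycle was -0.33, -0.20 and -0.020, and citrate cycle minus pentose phosphate was -0.044, -0.26 and -0.19. These differences are descriptions with no p-value, since the members are not replicates and the smallest two-sided p that 3 arrays allow in an exact sign-flip test is 0.25. Taken instead between the medians of the members' mean log2 ratios, glycolysis minus pentose phosphate was -0.33 and glycolysis minus citrate cycle -0.18. With the sign of replicate 2 turned, these latter values were -0.035 and 0.0093.

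**Figure D2:**
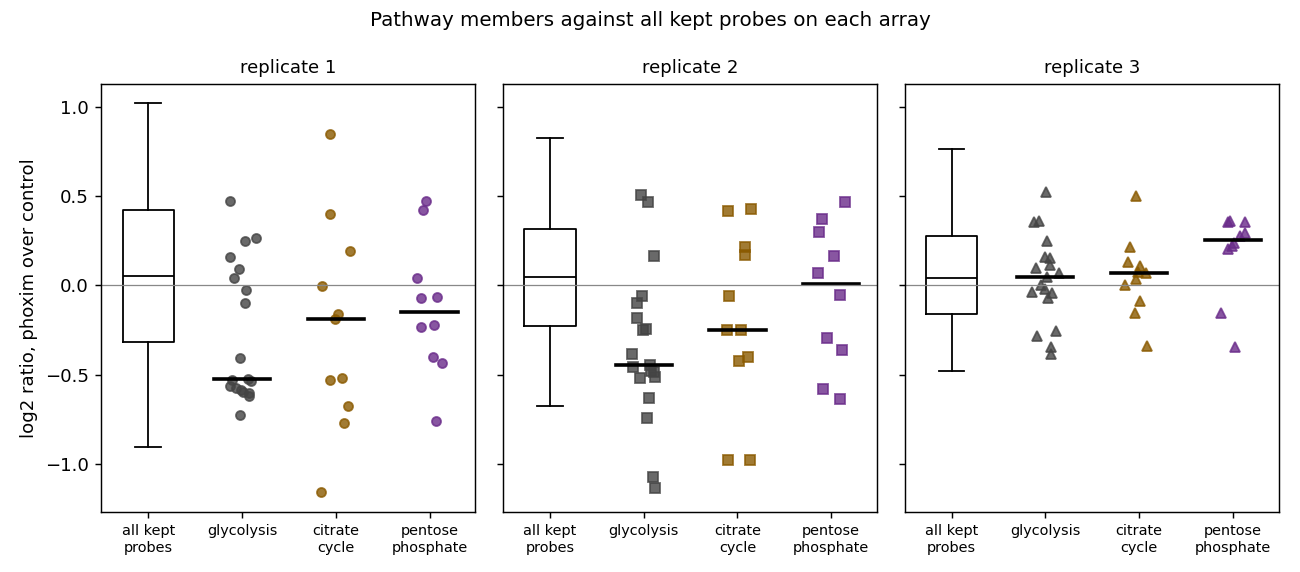
Log2 ratio of phoxim over control (y axis) on each array for the members of each pathway (points, with a black line at the median) and for all 3964 flagged probes (box from the 25th to the 75th percentile with a line at the median, whiskers at the 5th and the 95th). Glycolysis members gather near their medians of -0.52 and -0.45 on replicates 1 and 2 and around 0.046 on replicate 3.

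Among the enzymes of glycolysis itself, those from triose phosphate to pyruvate had negative mean ratios with 1 exception, a phosphoglycerate kinase probe, and aldolase, the enzyme before them, had a positive mean. Fructose-bisphosphate aldolase (sw18716), which splits the 6-carbon sugar into triose phosphates, had log2 ratios of 0.038, 0.47 and 0.36 on replicates 1, 2 and 3. Triosephosphate isomerase (sw11392), which interconverts those trioses, had -0.54, -0.63 and -0.022. Glyceraldehyde-3-phosphate dehydrogenase (LOC692786), which makes the NADH of the pathway, had -0.100, -1.07 and -0.26. The last gene was far lower on replicate 2 than on the other arrays, and its mean of -0.48 ± 0.52 (SD, n = 3) did not pass (adjusted p = 0.36, limma).

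The 2 flagged probes of phosphoglycerate kinase, which makes the first ATP of the pathway, went different ways. The probe sw18567, named by its gene ontology term, had -0.72, -0.48 and -0.043. The probe sw09931, matched to a lungfish phosphoglycerate kinase, had 0.16, -0.061 and 0.069. The second was the higher on 3 of 3 arrays, by 0.88, 0.42 and 0.11, and its mean of 0.055 turned to -0.046 with loess on the intensities. Whether the probes belong to 2 genes was not tested.

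In the deposited ratios, pyruvate kinase and phosphoglyceromutase had the smallest p-values among the glycolytic enzymes. Pyruvate kinase (LOC692450), which makes pyruvate and the last ATP of glycolysis, had intensities of 813, 468 and 628 for phoxim and 985, 807 and 657 for control on replicates 1, 2 and 3. Its log2 ratios were -0.61, -0.49 and -0.35, a mean of -0.48 ± 0.13 (SD, n = 3) with a 95% interval of -0.86 to -0.097 (adjusted p = 0.25, limma). Phoxim was thus below control on 3 of 3 arrays, and the spread of these ratios was smaller than the difference, yet the gene did not pass among all probes. With loess on the intensities its mean was -0.36 (adjusted p = 0.60, limma), a larger p than that of triosephosphate isomerase (adjusted p = 0.33, limma). With the median-centred quotient of intensities it was -0.40 (adjusted p = 0.68, limma). Phosphoglyceromutase (Pglym), which moves the phosphate within phosphoglycerate, had intensities of 1093, 1217 and 1375 for phoxim and 1786, 1973 and 1751 for control. Its log2 ratios were -0.59, -0.51 and -0.28, averaging -0.46 ± 0.16 (SD, n = 3) (limma adjusted p = 0.27). It too was below control on 3 of 3 arrays. Enolase (LOC100037426), which forms phosphoenolpyruvate between these steps, had -0.53, -0.38 and 0.046 and so crossed 0 on replicate 3.

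**Figure D3:**
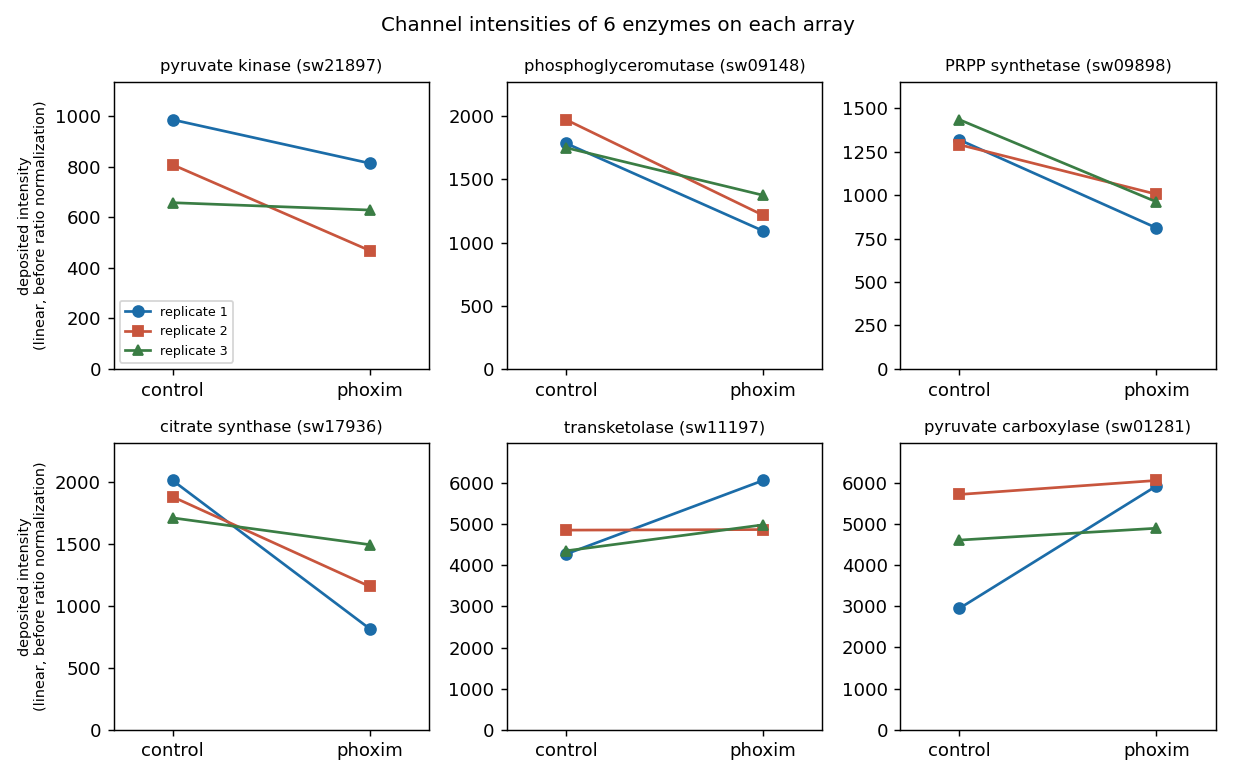
Deposited intensities on a linear scale (y axis, not normalized between the dyes) in the control and the phoxim channel of each array for 6 enzymes, joined by 1 line per array. Pyruvate kinase, phosphoglyceromutase, PRPP synthetase and citrate synthase were dimmer with phoxim on all 3 arrays, while transketolase and pyruvate carboxylase were brighter, transketolase on replicate 2 by 4873 against 4860.

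Fructose-1,6-bisphosphatase and pyruvate carboxylase had positive ratios on all arrays, and neither passed. Fructose-1,6-bisphosphatase (LOC732915), which runs the phosphofructokinase step backwards, had log2 ratios of 0.47, 0.17 and 0.36 on replicates 1, 2 and 3, averaging 0.33 ± 0.15 (SD, n = 3) (limma adjusted p = 0.37). Pyruvate carboxylase (sw01281), which makes oxaloacetate from pyruvate and so both refills the citrate cycle and opens gluconeogenesis, had intensities of 5927, 6061 and 4899 for phoxim and 2951, 5721 and 4611 for control. Its log2 ratios of 0.85, 0.41 and 0.13 gave a mean of 0.47 ± 0.36 (SD, n = 3) with a 95% interval of 0.0071 to 0.92 (adjusted p = 0.32, limma). Fructose-1,6-bisphosphatase exceeded pyruvate kinase by 1.08, 0.65 and 0.70 in log2 ratio, a pair picked after the values were seen. Phosphoenolpyruvate carboxykinase, the next gluconeogenic enzyme, had 1 probe described by that name (sw21451), with intensities of 13 to 119, below the flag level on all arrays.

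The pyruvate dehydrogenase complex, the link from glycolysis to the citrate cycle, had 3 probes, described here with a related oxidoreductase, and all 4 had negative means. Its E1 component decarboxylates pyruvate, and its beta subunit (LOC733134) had 2 probes of the same gene identifier. The probe sw11955 had -0.60, -0.46 and -0.00043, and the brighter sw11358 had 0.089, -0.25 and -0.39. The pair disagreed in sign on replicate 1, with a difference of 0.68. The gene L(b002), annotated as an oxidoreductase acting on oxo groups and listed under pyruvate metabolism, had -0.56, -0.52 and -0.037. The E2 component (sw14565), which passes the acetyl group to coenzyme A, had -0.40, -0.45 and -0.069. Of the 4 probes, 3 were below 0 on all arrays, sw11955 at only -0.00043 on replicate 3, and the adjusted p-values were 0.37 to 0.61 in limma.

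Side reactions in the glycolysis term had no common direction in their means, 3 of 6 being negative and 3 positive. By array, 4, 5 and 0 of the 6 were below 0 on replicates 1, 2 and 3 (background 46.2%, 45.2% and 44.9%). Aldose 1-epimerase, which turns the ring forms of sugars into each other, had 2 probes with ratios of -0.62, -1.14 and 0.11 for sw03637 and 0.25, -0.18 and 0.15 for sw19777. The first had the lowest mean of the glycolysis members, -0.55 ± 0.63 (SD, n = 3), and its best match is a bacterial protein of Pseudomonas. The second was the higher by 0.87, 0.95 and 0.037, and its mean of 0.072 was -0.036 with loess. Aldehyde dehydrogenases, which oxidise aldehydes to acids, had 3 probes. LOC692988 had -0.029, 0.51 and 0.096, the mitochondrial type sw09079 had -0.58, -0.25 and 0.25 and sw00132, matched to family 7, had -0.52, -0.74 and 0.16. LOC692988 was the highest of the 3 on replicates 1 and 2 and the lowest on replicate 3. The probe sw06503, whose best match is a glucose-1-phosphatase of Escherichia coli, had 0.26, -0.100 and 0.52.

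In the citrate cycle, citrate synthase and the NADP-dependent isocitrate dehydrogenase had the lowest means, and both were low on replicates 1 and 2 alone. Citrate synthase (sw17936), which joins acetyl-CoA and oxaloacetate and so starts the cycle, had intensities of 815, 1156 and 1493 for phoxim and 2011, 1879 and 1709 for control on replicates 1, 2 and 3. Its log2 ratios were -1.16, -0.98 and 0.074, a mean of -0.69 ± 0.67 (SD, n = 3) with a 95% interval of -1.31 to -0.065 (adjusted p = 0.29, limma). Replicate 3 lay apart from the other arrays, and without it the mean was -1.07 and the gene passed (adjusted p = 0.015, limma). The isocitrate dehydrogenase precursor LOC100101164, described as NADPH-specific, had -0.68, -0.97 and 0.0037. Its mean was -0.55 ± 0.50 (SD, n = 3) (adjusted p = 0.31, limma), or -0.83 without replicate 3 (adjusted p = 0.031, limma). These genes and aldose 1-epimerase sw03637 (-0.88, adjusted p = 0.032, limma) were the 3 members called without replicate 3, or 7.89% of members. The background was 11.9% in either direction. All 3 members were lower, while the calls over all 3964 flagged probes were 187 lower and 283 higher. Without replicate 1 or replicate 2 the count of members called was 0, with backgrounds of 0.656% and 0.101%.

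The other isocitrate dehydrogenases, which oxidise isocitrate to oxoglutarate, had means nearer 0. The beta subunit of the NAD-dependent enzyme (sw01836) had -0.53, -0.42 and 0.033. The gene LOC692823, named only isocitrate dehydrogenase but given an NADP-dependent activity by its gene ontology term, had -0.16, -0.058 and -0.088. Its mean of -0.10 was -0.26 with loess and -0.28 with the quotient of intensities. Its log2 ratio minus that of LOC100101164 was 0.51, 0.92 and -0.091. The probe sw09969, matched to an unnamed fruit fly protein and listed under the citrate cycle and glutathione metabolism, had -0.19, -0.40 and 0.22. The probe sw05006, matched to an unnamed frog protein, had -0.77, -0.25 and 0.066.

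Aconitase, the step between citrate and isocitrate, had 1 probe by name and a match to a relative. The probe sw20350, matched to a mitochondrial aconitase of Caenorhabditis elegans, had 0.19, 0.17 and 0.11, the smallest spread of all members (SD 0.043). Its mean of 0.16 had a 95% interval of -0.21 to 0.53, did not pass, and was 0.033 with loess, 0.044 with the quotient of intensities and 0.11 after median centring. The probe sw17855, matched to the fruit fly's iron regulatory protein 1A, a cytosolic relative of aconitase, had 0.40, 0.21 and -0.34, and its mean of 0.090 was -0.0030 with loess.

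The malate dehydrogenases, which interconvert malate and oxaloacetate, differed by their named compartment. The probe matched to the mitochondrial enzyme (sw14808) had intensities of 4539, 3813 and 4887 for phoxim and 4009, 3637 and 3217 for control, and log2 ratios of -0.0055, 0.43 and 0.50. The cytosolic gene LOC692952 had intensities of 7438, 7719 and 8250 and 8979, 9827 and 7684, and log2 ratios of -0.52, -0.25 and -0.15. The mitochondrial match was the higher on 3 of 3 arrays, by 0.51, 0.68 and 0.65 (mean 0.61 ± 0.089, SD, n = 3), a difference larger than its spread between arrays. The pair was picked after the values were seen, so no test is given. Neither gene passed alone (adjusted p = 0.43 and 0.40, limma). With the sign of replicate 2 turned the difference would be negative on that array.

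In the pentose phosphate pathway transketolase and the 2 members shared with glycolysis were above 0 on all arrays, and PRPP synthetase and ribulose-phosphate 3-epimerase were below 0 on all. Transketolase (LOC692848), which moves 2-carbon units between sugars, had intensities of 6069, 4873 and 4988 for phoxim and 4275, 4860 and 4355 for control on replicates 1, 2 and 3. Its log2 ratios of 0.42, 0.30 and 0.24 gave a mean of 0.32 ± 0.094 (SD, n = 3) with a 95% interval of -0.056 to 0.69 (adjusted p = 0.37, limma). This probe (sw11197) was above control on 3 of 3 arrays and did not pass, and its mean was 0.21 with loess. A second probe of the gene (sw00306) was below the flag level on all arrays, with intensities of 277 to 364. That probe was above the 95th percentile of the negative controls in 4 of 6 channels and had 0.14, -0.25 and 0.11. Transaldolase (LOC733132), which moves 3-carbon units, had -0.065, 0.37 and 0.29. Aldolase and fructose-1,6-bisphosphatase, given above, are the 2 members shared with glycolysis, and with transketolase they are the 3 pentose phosphate members above 0 on all arrays.

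The 2 members of the NADPH-making branch had means of 0.027 and -0.29. The enzyme 6-phosphogluconolactonase (6pgl), its second step, had -0.22, -0.054 and 0.36, and its mean of 0.027 was -0.018 after median centring. The enzyme 6-phosphogluconate dehydrogenase (LOC733113), which makes NADPH, had -0.44, -0.64 and 0.20. Both were below 0 on replicates 1 and 2 and above 0 on replicate 3. Outside that branch, ribose-5-phosphate isomerase (sw16297) had -0.23, 0.068 and 0.22, with a mean of 0.019 that was -0.053 with loess and -0.027 after median centring. In turn ribulose-phosphate 3-epimerase (sw18904), which acts on the same intermediate, had -0.40, -0.30 and -0.16. The epimerase was below 0 on all arrays, averaging -0.28 ± 0.12 (SD, n = 3) (limma adjusted p = 0.42). The short-chain dehydrogenase/reductase 2 probe sw04364, listed in this pathway, had -0.074, -0.36 and 0.27.

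Phosphoribosyl pyrophosphate (PRPP) synthetase had the smallest p of all members in the deposited ratios. It takes ribose 5-phosphate out of the pathway for nucleotide synthesis. The gene LOC692963 had intensities of 812, 1006 and 962 for phoxim and 1319, 1291 and 1435 for control on replicates 1, 2 and 3. Its log2 ratios of -0.76, -0.58 and -0.34 were below 0 on 3 of 3 arrays, with a mean of -0.56 ± 0.21 (SD, n = 3) and a 95% interval of -0.96 to -0.16 (adjusted p = 0.20, limma).

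**Figure D4:**
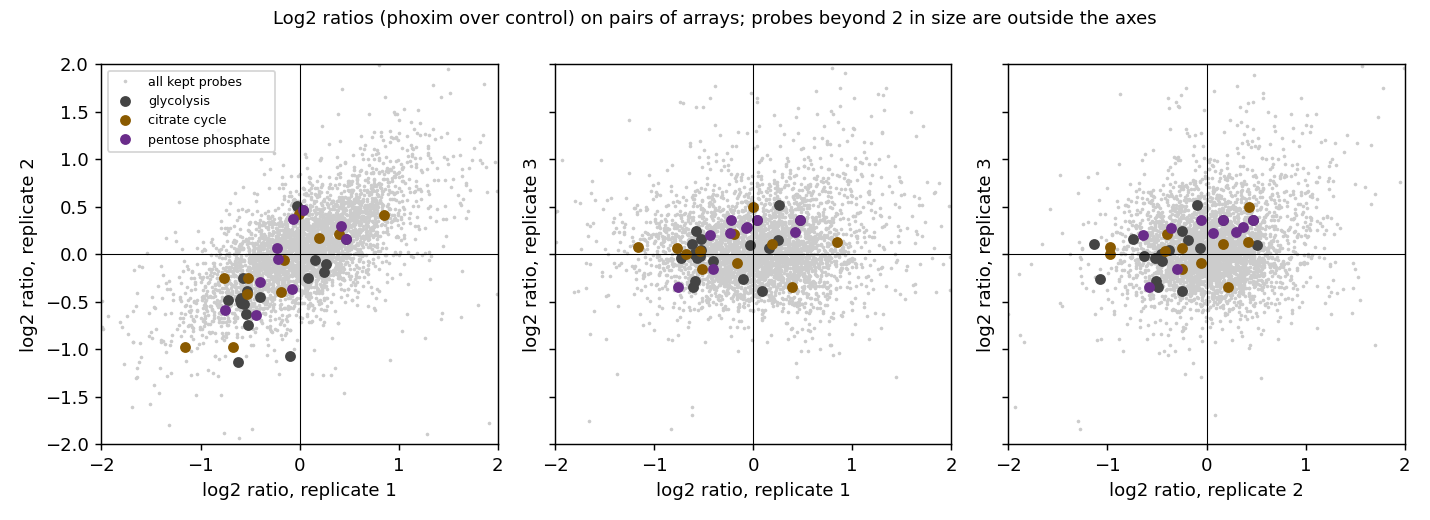
Log2 ratios of phoxim over control on 2 arrays against each other for all 3964 flagged probes (grey) and the members by pathway (colour). Members follow the diagonal for replicates 1 and 2 (r = 0.71 across 38 probes) and less so where replicate 3 is on an axis (r = 0.31 and 0.40).

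Replicates 1 and 2 ranked the members alike. Across the 38 members, which are not independent replicates, the log2 ratios of replicates 1 and 2 had Pearson's r = 0.71 and Spearman's rho = 0.74. Those of replicates 1 and 3 had r = 0.31 and rho = 0.39, and those of replicates 2 and 3 had r = 0.40 and rho = 0.45. Over all flagged probes r was 0.62, 0.18 and 0.26 and rho was 0.62, 0.080 and 0.097, so the order of the arrays' likeness was the same. By rank, replicate 3 thus had little likeness to the other arrays over all flagged probes. The points share their arrays, dyes and probe sequences, and the correlations are given as descriptions.

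The entry steps of glycolysis and of the pentose phosphate pathway could not be compared. Of the 76 annotated probes, 32 lacked the flag on at least 1 array, 28 of them on all. Hexokinase, which traps glucose in the cell, had 2 probes with intensities of 0 to 135. Phosphofructokinase, the main control point of glycolysis, had 1 probe (sw08549) with 183 to 367. Glucose-6-phosphate dehydrogenase, the first NADPH-making enzyme, had 1 probe (sw07398) with 0 to 79. The flag level of 400 passed close to some members: the lowest brighter-channel intensity over the arrays was 420 for fructose-1,6-bisphosphatase, 436 for the E2 component and 452 for sw17855, and outside it 363 for the pyruvate kinase probe sw22892, 338 for sw18085 and 332 for the transketolase probe sw00306. All 38 members were above the 95th percentile of the negative controls in both channels on all arrays.

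Genes that feed or drain these pathways were described from a separate list of names. Of 62 such probes on the array 10 were flagged on all arrays, 0 of these passed in either direction (background 0.681%), and their median mean log2 ratio was -0.0088. Trehalase (LOC693027), which splits the blood sugar trehalose into glucose, had -0.091, -0.35 and 0.61. The lactate dehydrogenase gene Ldh, which reduces pyruvate to lactate, had -0.88, -0.16 and 0.23. The brightest flagged sugar transporter probe (sw05821, matched to glucose transporter 8) had -0.62, 0.038 and 0.60. The glycogen synthase probe sw18066, of the glucose storage enzyme, had 0.10, 0.018 and 0.17. The sorbitol dehydrogenase probe sw22553 had -1.68, -0.93 and 0.32. The other 5 flagged probes were a second lactate dehydrogenase (sw18743), with -0.32, 0.17 and 0.064, a second sorbitol dehydrogenase (sw19739), with 0.27, 0.17 and -0.036, and 3 sugar transporters. Those had -0.29, -0.24 and 0.42 for sw01653, 0.26, 0.047 and -0.092 for sw00146 and -0.21, -0.68 and -0.19 for sw09957. Over the 10 probes 1 was below 0 on all arrays and 1 above 0 on all. Replicate 3 was the highest array for most of them and the lowest for sw19739 and sw00146. Their medians were -0.25, -0.071 and 0.20 on replicates 1, 2 and 3. On these arrays 7, 5 and 3 of the 10 were below 0 (background 46.2%, 45.2% and 44.9%).

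Markers of other tissues differed between the channels in the same RNAs. The 15 flagged fat body marker probes of 31 on the array (30K and storage proteins by name) had medians of 2.23, 1.60 and 2.38 on replicates 1, 2 and 3. Of the 15, 10 passed as higher, where the background was 0.505% higher and 0.177% lower. The summed intensity of the 15 was 36552 to 195706 for phoxim and 14574 to 47518 for control. The 27 flagged muscle probes of 87 had medians of 0.49, 0.29 and 0.43 and sums of 117987 to 155591 and 93930 to 120438, with 0 passing. The 6 flagged haemocyte probes of 36, 1 of them passing as higher, had medians of 0.57, 0.74 and 0.61 and sums of 5881 to 7180 and 3174 to 5642. The 51 flagged midgut probes of 108, digestive proteases, peritrophic proteins and proton pump subunits (3 passing as higher and 1 as lower), had medians of 0.24, 0.087 and 0.31 and sums of 516087 to 669284 and 463461 to 629831, so the defining markers of the labelled tissue were present. On replicate 2 the midgut and muscle sums were lower with phoxim (516087 against 629831, and 117987 against 120438), and on replicates 1 and 3 higher. These intensities are not normalized between the dyes. No flagged marker was at 0 in either channel. The part of these tissues in the members' ratios was not tested.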

How the data were processed

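Midgut RNA of phoxim-fed and control larvae was compared on 3 two-colour arrays. Per the labels, RNA was amplified to cRNA, copied back to cDNA and labelled with Cy3 or Cy5. Per the file headers, the deposited files hold a linear intensity for each dye and a ratio of phoxim over control, which differs from the quotient of the intensities. Scanner, background correction and normalization: not given in the sources used here. A deposited table repeats the ratio as log2, to within 4.9e-09.

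The log2 ratios went into limma 3.58.1 (R 4.3.3; intercept only, eBayes, two-sided) over the 3964 gene probes flagged on every array, where the flag marks a brighter channel of at least 400. The threshold on adjusted p was 0.05. By the headers phoxim carried Cy3 on replicate 2 and Cy5 otherwise. Of 38 members, 17 had a gene identifier, 1 of which served 2 probes. For 16 of these 17 probes the identifier had a symbol in RefSeq's table of assembly ASM3026992v2, used for names only. For pyruvate kinase (LOC692450) no symbol was found there. Other names are best protein matches, often in other species. No genome was given, so positions are left out. The fit was tested on simulated data. The number of arrays limits the precision.

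Members and lists were chosen with earlier results of these data known. The rule for named genes took, in each pathway, the 4 highest and 4 lowest means and every controlling or NADPH step, and all other members are given as well. Pairs of probes were chosen after their values were seen. Other scalings, filters, dye settings, array weights and sets of arrays were tried.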

Additional observations from a re-analysis of the deposited data

Results flagged for a closer look

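Among the pathway probes that no comparison used, 4 carried the brightness flag on 1 or 2 arrays, and each was above the 95th percentile of the negative controls in 5 of 6 channels. The exception was the phoxim channel of replicate 2, at 245 to 346 against a level of 348. The highest intensity was 739 for sw18085, matched to a subunit of succinate-CoA ligase, and 844 for sw22892, a second pyruvate kinase probe, both flagged on 2 of 3 arrays. It was 533 for sw21062 (glucose-6-phosphate isomerase) and 427 for sw05468 (matched to an Sdhb protein, and also left out by the rule for members), both flagged on 1 array. With 1 channel at the level of the negative controls, their ratios are not given.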

How the results depend on the processing

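Among the members the count of calls stayed at 0 with loess on the intensities, the median-centred quotient of intensities, median centring, scaling between arrays, all gene probes, both channels above the flag level (32 members), replicate 2 turned, a dye term and an intensity trend. It was 11, all lower, with array weights of 0.70, 3.11 and 0.46 for replicates 1, 2 and 3 (28.9% of members). The background there was 18.8% in either direction, with 288 probes lower and 458 higher of 3964. With 1 replicate left out the count among members was 0 to 3. Over all probes the count was 27, and 1 with scaling, 0 with all gene probes (450 at an unadjusted p below 0.05), 16 with both channels above the flag level, 0 with replicate 2 turned (29 unadjusted), 0 with a dye term (348 unadjusted), all in limma, 746 with array weights, and 4 (without replicate 2) to 470 (without replicate 3) with 1 left out. The cause of these changes was not tested.

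The citrate cycle median of -0.13 was -0.31 over core enzymes only, and -0.30 to -0.091 with 1 replicate left out. The glycolysis median was -0.46 to -0.18 and the pentose phosphate median -0.11 to 0.15 with 1 left out. The pentose phosphate median was also below 0 with median centring (-0.022), array weights (-0.0010) and members of 1 pathway only (-0.018). Glycolysis minus pentose phosphate (-0.33) was -0.28 with loess, -0.035 with replicate 2 turned, -0.29 with array weights and -0.35 to -0.27 with 1 left out. Glycolysis minus citrate cycle (-0.18) was 0.0093 with replicate 2 turned and -0.17 to -0.058 with 1 left out. Citrate cycle minus pentose phosphate (-0.15) was -0.28 with array weights and -0.24 to -0.19 with 1 left out. Of 488 member values under the alternatives, 449 stayed within 1 SD of the arrays without a new call, 25 moved further and 14 passed newly. Of the 488, 33 changed sign. The 449 are no measure of stability, since many of these means could not move by 1 SD. With all gene probes, an intensity trend or both channels above the flag level, each member kept its ratios and so its mean. With a dye term or 1 replicate left out, a mean cannot shift by 1 SD of its arrays. In these settings the 449 could change only by new calls. The fit is paired by array, since each within-array ratio sets 1 phoxim RNA against the control RNA of the same array. No further pairing was possible because the arrays form 1 group with no second group to pair.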
